A study of Rattus norvegicus with 91 samples.

Results

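The genes described here encode the proteasome: every probe set with a single gene symbol of the Psma, Psmb, Psmc, Psmd, Psme, Psmf or Psmg families, leaving out the immunoproteasome subunits Psmb8, Psmb9 and Psmb10. The rule found 46 of 8740 probe sets on the array of the short time course, for 25 genes. It found 43 of 15866 probe sets on the array of the long course, for 38 genes and for 2 genes matched by name alone, Psmc3ip and Psme3ip1, which encode no proteasome part and were set apart. All 25 and all 38 genes passed the filter on low signal. A further 5 and 6 probe sets join a proteasome symbol with another symbol and lie outside the rule, so Psmb6 was not read.

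The series followed gene expression in livers of Wistar rats after methylprednisolone, a synthetic glucocorticoid, at 50 mg/kg. The short course had groups at 0 (control), 0.25, 0.5, 0.75, 1, 2, 4, 5, 5.5, 6, 7, 8, 12, 18, 30, 48 and 72 h, with 2 to 4 arrays each and 47 in all. The long course had groups at 0 (control), 6, 10, 13, 18, 24, 36, 48, 72, 96 and 168 h, with 4 arrays each and 44 in all. Labels of the control arrays give the same dose with time 0, and they name no route, schedule, vehicle or time of day. No label says that the arrays of a group came from separate animals, so the p-values measure the spread between arrays, which may be technical.

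The proteasome degrades proteins tagged with ubiquitin. Its 20S core is a barrel of alpha rings, which gate the entry, around beta rings, which hold the cutting sites, and the 19S cap binds ubiquitin chains and unfolds and feeds in the substrate with its ATPase ring. The activator PA28, made by Psme1 and Psme2, can take the place of the cap, and dedicated chaperones assemble core and cap. Glucocorticoids are known to raise proteasome genes in muscle during protein wasting, and in liver they turn on amino acid catabolism.

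Promoters are shown for the 5 genes with the smallest adjusted p at 4 to 8 h of the short course among those with a promoter in the table, because a shared element before the start would be visible there. Sequences are those of RefSeq on the rat build GRCr8, 250 bases up to the transcription start, 5′ to 3′ on the gene's strand, and capitals mark CCAAT or, on the other strand, ATTGG. The Psma6 window lies at chr6:78514097-78514346 (plus strand) and the Psmc4 window at chr1:92485061-92485310 (minus strand), and neither holds a match. The Psmb1 window at chr1:65134771-65135020 (minus strand), the Psmd13 window at chr1:205393998-205394247 (plus strand) and the Psma1 window at chr1:177887858-177888107 (minus strand) hold 1 each.
Psma6: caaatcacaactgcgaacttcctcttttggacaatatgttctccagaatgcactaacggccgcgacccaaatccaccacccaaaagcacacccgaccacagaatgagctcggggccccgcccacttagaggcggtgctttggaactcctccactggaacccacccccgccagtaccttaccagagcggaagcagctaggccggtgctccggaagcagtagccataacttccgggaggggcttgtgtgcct
Psmb1: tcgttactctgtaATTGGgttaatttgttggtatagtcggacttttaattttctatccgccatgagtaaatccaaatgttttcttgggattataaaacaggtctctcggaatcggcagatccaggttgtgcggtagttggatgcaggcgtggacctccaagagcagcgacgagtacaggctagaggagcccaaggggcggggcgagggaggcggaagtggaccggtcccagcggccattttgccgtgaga
Psmd13: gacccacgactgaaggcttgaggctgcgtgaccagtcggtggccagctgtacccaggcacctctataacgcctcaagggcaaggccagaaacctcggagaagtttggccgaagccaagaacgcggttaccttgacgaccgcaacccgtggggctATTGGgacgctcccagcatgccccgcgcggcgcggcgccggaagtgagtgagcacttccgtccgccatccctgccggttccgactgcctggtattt
Psma1: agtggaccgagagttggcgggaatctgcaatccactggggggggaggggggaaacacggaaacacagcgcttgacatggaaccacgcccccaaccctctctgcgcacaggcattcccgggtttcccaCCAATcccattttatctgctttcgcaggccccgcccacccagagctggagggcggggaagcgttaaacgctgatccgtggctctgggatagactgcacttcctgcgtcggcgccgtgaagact
Psmc4: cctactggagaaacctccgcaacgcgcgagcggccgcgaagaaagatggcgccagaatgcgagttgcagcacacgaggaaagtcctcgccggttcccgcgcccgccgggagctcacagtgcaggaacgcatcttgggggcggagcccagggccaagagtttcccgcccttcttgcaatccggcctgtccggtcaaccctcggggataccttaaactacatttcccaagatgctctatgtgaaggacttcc
Promoters of 36 of the 38 genes matched the table. CCAAT on either strand stood in 18 of these 36 windows (50.0%), against 9416 of 27457 rat promoters of the same length (34.3%). Among the genes that rose at 4 to 8 h, 7 of the 12 with a promoter (58.3%) held it, namely Psma1, Psma2, Psma4, Psma5, Psmb1, Psmb2 and Psmd13. The antioxidant response element core TGACNNNGC, searched on both strands, stood in 6 of 36 windows (16.7%), against 10.2% of all promoters. They were those of Psma3, Psmb2, Psmb5, Psmd1, Psmd9 and Psme4, and among the 12 genes that rose it was Psmb2 alone (8.33%). The glucocorticoid response element, AGAACA and TGTTCT with 3 bases between them, also searched on both strands, stood in 0 of 36 windows and in 1 promoter of all. None of the 3 motifs contains another, and a match is only a description of these windows.

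Before the results, some facts about the arrays bear on them. The deposited signals of a course share a 2% trimmed mean, which is 801 for short-course arrays and 150 for long-course arrays, with 1 exception: the 6 h replicate 3 array of the short course, at 150, was rescaled to 801. Mean correlation with the other arrays of the course was under 0.9 for 9 short-course arrays, among them control replicates 1 and 3 and 4 of the 17 arrays from 4 to 8 h, and for 1 long-course array. For 96 h replicate 1 of the long course the description gives 72 h, and the title decided. The description of 48 h replicate 1 of that course has the wording of the short course, and it too was placed by its title. Mean spike-in signal was at log2 9 or more on 1 of the 4 long-course controls. It was so on 4 of 16, 4 of 12 and 6 of 12 arrays at 6 to 18, 24 to 48 and 72 to 168 h. Arrays under log2 9 are called arrays of low spike-in signal. Every long-course array of replicate 4 was at log2 9 or more, as were some arrays of other numbers. Hepatocyte markers, 9 of 10 on each array, were all above the filter, with summed signals of 64836 or more in the short-course controls and 71831 or more in the long-course controls. Tat, tyrosine aminotransferase, the classic glucocorticoid-induced liver gene, rose by 0.79 ± 0.23 (log2, SE) at 4 to 8 h of the short course and by 1.41 ± 0.27 at 6 to 18 h of the long course (limma, adjusted p = 0.0108 and 0.000424). Short-course controls had Tat signals of 3341, 9713, 8588 and 4209. All 17 arrays at 4 to 8 h lay above the control mean and 9 above every control. At 12 to 18 h all 5 arrays lay below that mean.

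At 4 to 8 h of the short course, proteasome genes stood above the controls as a group and 13 of 25 rose, each judged by limma at an adjusted p under 0.05 over all probe sets. Of all 3579 genes tested, 16.8% rose and 10.9% fell in that window, or 11.5% and 14.9% with each array centred on its median. The 13 were 8 of 11 core genes, 4 of 10 cap genes and the activator subunit Psme2, and 18 of 25 had an unadjusted p under 0.05. The median change was 0.38 log2 over the 25 genes and 0.11 over all genes. All probe sets together were shifted by 0.10 in this window, and with quantile-normalized or median-centred arrays the median over the 25 genes was 0.31 and 0.27. Without the 9 arrays of low correlation, which leaves 2 controls, 5 of 25 rose, against 4.5% of all genes. With 6 h replicate 3 on its deposited scale 1 of 25 did, against 4.08% of all genes. A change in the number of cells of a type and a change in RNA per cell cannot be told apart in these bulk samples.

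**Figure D1:**
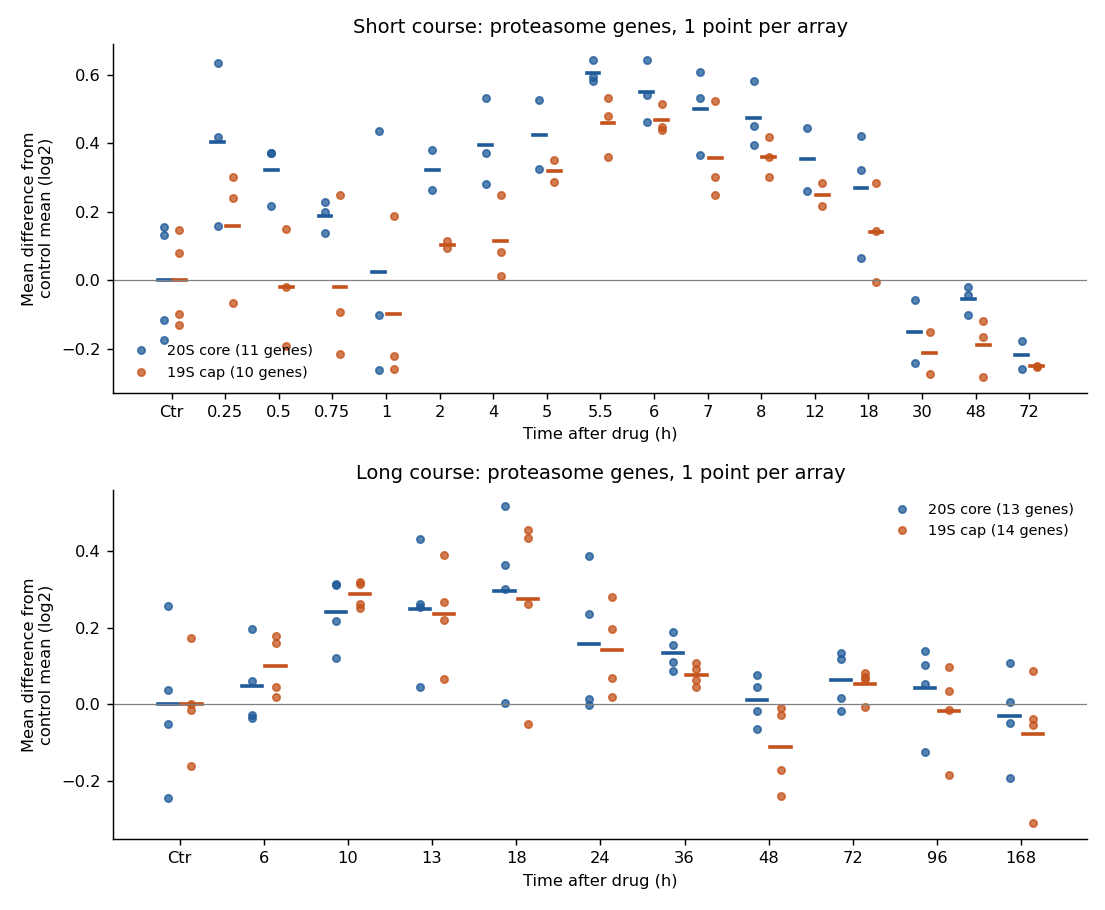
Mean log2 difference from the control mean over the 20S core genes and the 19S cap genes, for each array (points) and group (bars), against time in hours, in the short course (top, 11 and 10 genes) and the long course (bottom, 13 and 14 genes). In the short course the 17 arrays from 4 to 8 h have core means between 0.28 and 0.64, all above the 4 control arrays, and the 7 arrays from 30 to 72 h lie below 0.

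All 6 alpha-ring genes rose at 4 to 8 h, with a median of 0.55 log2. Psma6, an alpha-ring subunit, had signals from 4139.7 to 7160.3 with a median of 5746 over the 17 arrays at 4 to 8 h, against 3167, 3334, 2782 and 2911 in the controls. The groups did not overlap. Its change was 0.87 ± 0.13 log2 (SE), a fold of 1.82, with an adjusted p of 1.01e-05, and it kept its call under each setting tried. Psma7, another alpha-ring subunit, had 2629.7 to 4041.6 with a median of 3404, against 1599, 2372, 2400 and 1763 in the controls. Again no treated array reached down to the control range, and the change was 0.72 ± 0.14 (adjusted p = 0.000318), although the gene's second probe set gave 0.23. Psma1 had 1361.1 to 2296 with a median of 1949.6, against 1542, 1222, 1183 and 1281 in the controls, and 15 of 17 arrays stood above all 4. Its change was 0.51 ± 0.11 (adjusted p = 0.000679), while its other probe set gave -0.02, and with the mean of both the call was lost at 0.25 (adjusted p = 0.0558). Psma5, Psma4 and Psma2, also of the alpha ring, rose by 0.60, 0.50 and 0.50.

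Beta-ring genes were split: 2 of 5 rose and the others had smaller positive values, with a median of 0.24 log2. Psmb1, a beta subunit without a cutting site, had 2375.4 to 3749.8 with a median of 2875 at 4 to 8 h, against 2071, 2091, 1787 and 1596 in the controls. All 17 arrays lay above every control, and the change was 0.63 ± 0.12 (adjusted p = 0.000176). Psmb2, a structural beta subunit, rose by 0.48 ± 0.14 (adjusted p = 0.00947). Psmb5, which carries the chymotrypsin-like site, had 5403.5 to 8134.3 with a median of 6554, against 6646, 6033, 4456 and 5571 in the controls, so the groups overlapped. Its change of 0.21 ± 0.09 did not pass (adjusted p = 0.0879), though it did without control replicate 1 at 0.29. Psmb3 and Psmb4, structural beta subunits, had 0.15 ± 0.11 and 0.24 ± 0.10 and did not pass either.

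**Figure D2:**
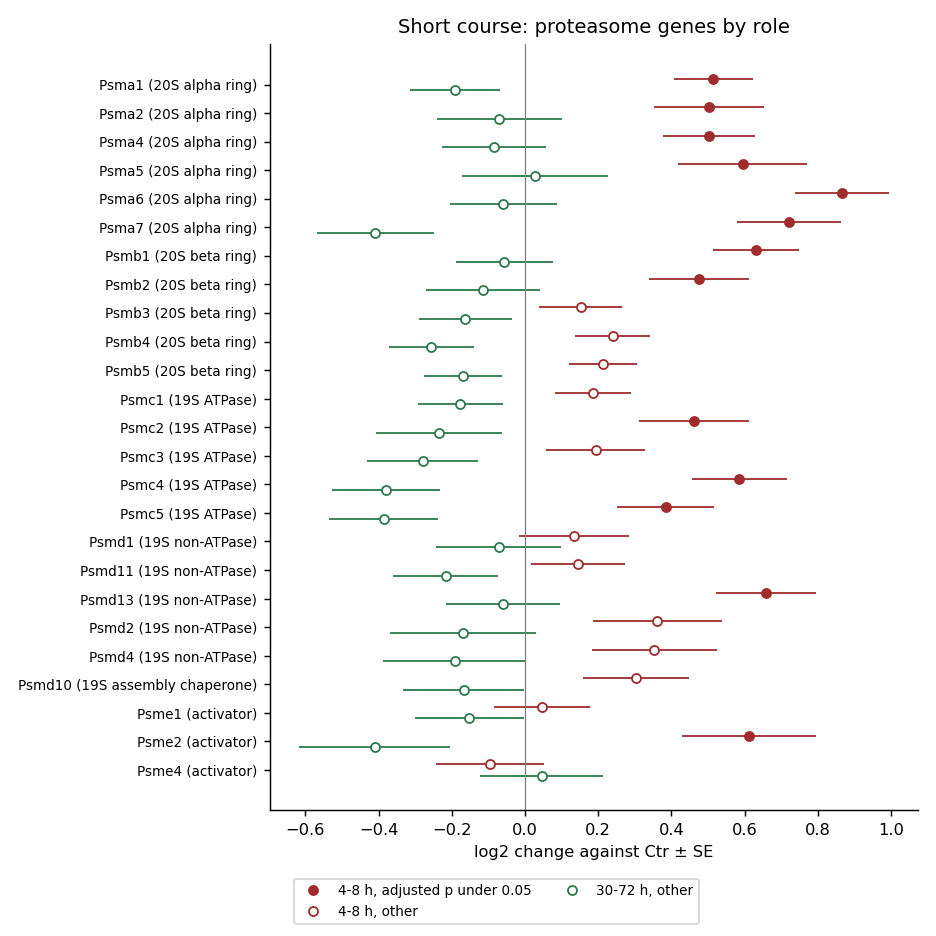
Log2 change against the controls (x axis, with SE bars) of the 25 proteasome genes of the short course, grouped by role down the page, at 4 to 8 h and at 30 to 72 h, with filled points for an adjusted p under 0.05. The 6 alpha-ring genes are all filled at 4 to 8 h, and no gene is filled at 30 to 72 h.

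In the cap, 3 of 5 ATPases and 1 of 5 non-ATPase subunits rose. Psmc4, an ATPase of the unfolding ring, had 1293.9 to 2153.7 with a median of 1605.5 at 4 to 8 h, against 1023, 1030, 1142 and 1176 in the controls. These ranges were apart, and the change was 0.59 ± 0.13 (adjusted p = 0.00112). Psmc2, an ATPase of the same ring, had 810.13 to 1762.9 with a median of 1222, against 787.1, 694.5, 1033 and 866.7 in the controls, with 10 of 17 arrays above all controls. Its change was 0.46 ± 0.15 (adjusted p = 0.0213), and Psmc5, also of that ring, changed by 0.38 ± 0.13 (adjusted p = 0.0280). Both calls were lost with quantile normalization, at 0.37 and 0.29, or without control replicate 1, and that of Psmc2 also without control replicate 2, that of Psmc5 without control replicate 4 or 5 h replicate 1. Psmc3 and Psmc1, the remaining ATPases read, had 0.19 ± 0.13 and 0.19 ± 0.10 and did not pass.

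Psmd13, a non-ATPase lid subunit, had 563.39 to 1202.7 with a median of 895.5 at 4 to 8 h, against 542.5, 769.2, 426.6 and 493.1 in the controls. Of the 17 arrays, 13 lay above all controls, and the change was 0.66 ± 0.14 (adjusted p = 0.000594), or 0.42 (adjusted p = 0.187) without the 9 arrays of low correlation. Psmd1, a large scaffold subunit, and Psmd4, a ubiquitin receptor, gave unlike answers by probe set. Of the 4 probe sets of Psmd1, the brightest and another had 0.13 each and did not pass, and the other two had 0.47 and 0.60 and did (adjusted p = 0.0217 and 0.000804). Of the 3 of Psmd4, the brightest had 0.35 and another 0.26, which did not pass, and the third had 0.66 (adjusted p = 0.0104).

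Psme2, the beta subunit of PA28, had 1489.9 to 3196.2 with a median of 2082 at 4 to 8 h, against 1031, 1804, 1532 and 1108 in the controls. Its change was 0.61 ± 0.18 (adjusted p = 0.0117), and the call was lost without control replicate 1 or 4. It was also lost with replicate number fitted as a block, at 0.52 (adjusted p = 0.0702). Without the arrays of low correlation the change was 0.42 and the call was lost too. Psme1, the alpha subunit of the same ring, had 5065.5 to 10120.0 with a median of 7685, against 6261, 9091, 6344 and 6951 in the controls. Those groups overlapped widely, and its change was 0.05 ± 0.13 (adjusted p = 0.83). Psmd10, gankyrin, a chaperone of cap assembly, had 0.30 ± 0.15 and Psme4, the PA200 activator, had -0.10 ± 0.15, and neither passed.

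**Figure D3:**
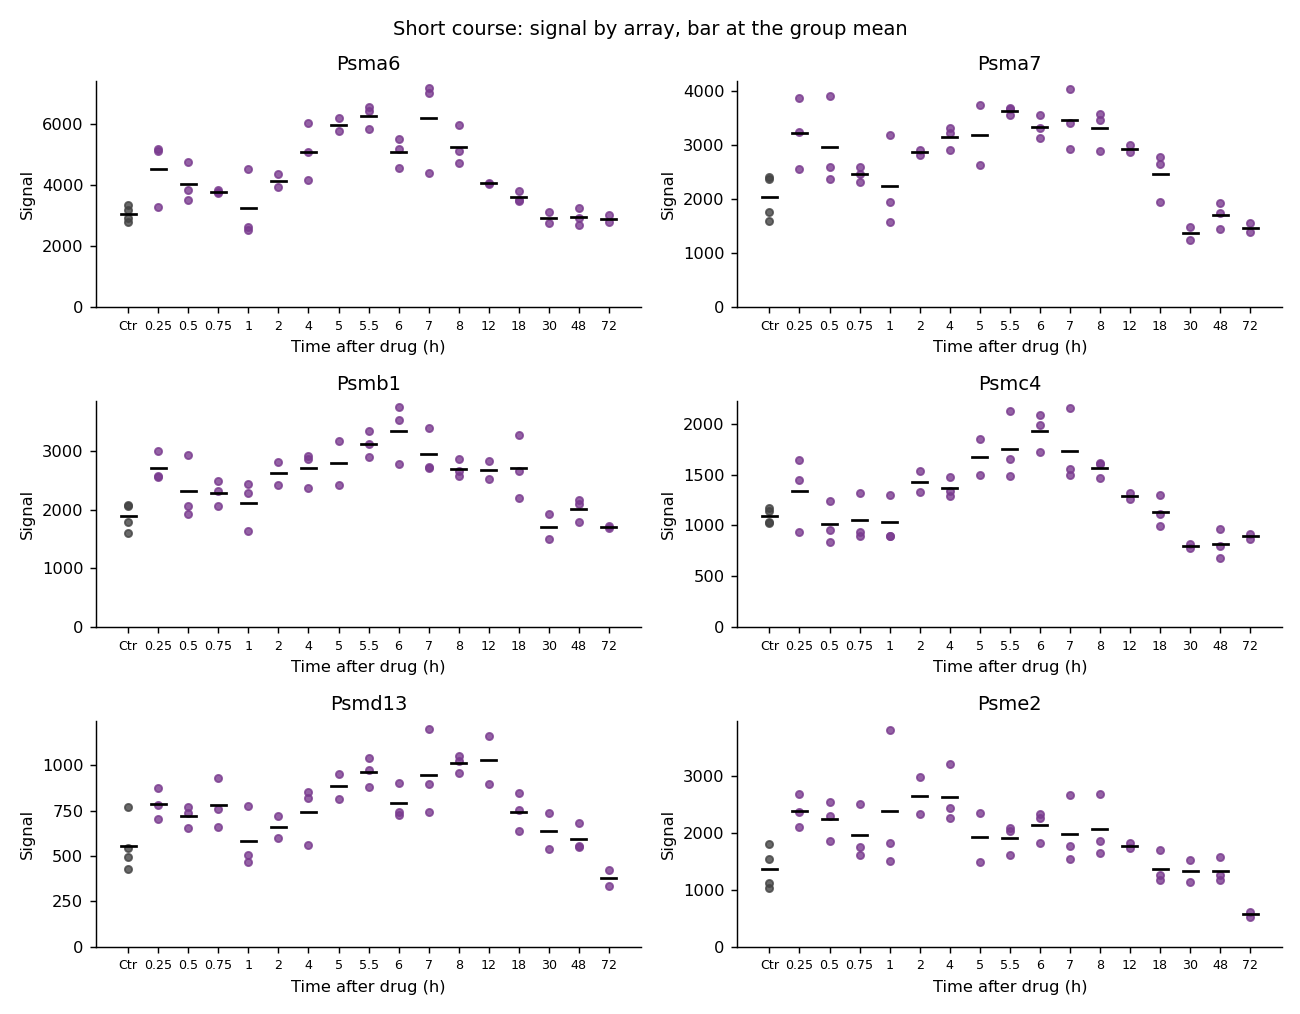
Signal (y axis, from 0) of 6 proteasome genes on each array of the short course against time in hours, with a bar at each group mean and the controls in grey. Values are as deposited except for 6 h replicate 3, which is shown rescaled. Psma6, Psma7, Psmb1 and Psmc4 have all 17 arrays from 4 to 8 h above all 4 controls, and at 72 h their values are back in or below the control range.

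Core and cap are given by time as values, with no test between them. Averaged over the 11 core genes, the log2 difference from the control mean was 0.40 ± 0.24 (SD, n = 3) at 0.25 h, 0.32 ± 0.09 (n = 3) at 0.5 h and 0.19 ± 0.05 (n = 3) at 0.75 h. The 10 cap genes averaged 0.16 ± 0.20, -0.02 ± 0.17 and -0.02 ± 0.24 at those times. At 1 h the core averaged 0.02 ± 0.36 (n = 3), with arrays from -0.26 to 0.43 against -0.17 to 0.16 in the controls, and the cap averaged -0.10 ± 0.25 (n = 3). Over 0.25 to 0.75 h the median over the 25 genes was 0.13 log2, and it was -0.01 with each array centred on its median. Single times gave 38 calls over 25 genes and 16 times, against 6.38% of all gene and time pairs. Without the arrays of low correlation there were 8 such calls. Both parts stood highest at 5.5 and 6 h: the core at 0.61 ± 0.03 (n = 3) at 5.5 h and the cap at 0.47 ± 0.04 (n = 3) at 6 h. At 8 h the core still averaged 0.48 ± 0.10 (n = 3).

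For single genes at early times, 1 of 25 passed at 0.25 to 0.75 h, where 2.65% of genes rose, and 1 of 25 at 1 to 2 h, where 7.91% did, and in both windows it was Psme2. Its changes were 0.68 ± 0.20 (adjusted p = 0.0453) and 0.83 ± 0.22 (adjusted p = 0.0136). The first call was lost in 18 of 47 fits that each left out 1 array, and the second without control replicate 1 or 4, 1 h replicate 2 or 2 h replicate 2. With 1 array left out, up to 5 genes passed at 0.25 to 0.75 h. Psma7 had 0.49 there and Psma6 0.41, and neither passed with all arrays.

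At 12 to 18 h, 2 of 25 genes passed, against 0.391% of all genes higher. Psmb3 had 0.61 ± 0.14 (adjusted p = 0.0209), lost without control replicate 3, 12 h replicate 1 or 18 h replicate 2, and Psmd13 had 0.65 ± 0.17 (adjusted p = 0.0481), lost in 28 of 47 fits that left out 1 array. The call of Psmb3 was also lost with the mean of its probe sets, at 0.45 (adjusted p = 0.0772). Without the arrays of low correlation the changes of Psmb3 and Psmd13 were 0.45 and 0.48, and both calls were lost. Core means at 12 and 18 h were 0.35 ± 0.13 (SD, n = 2) and 0.27 ± 0.18 (n = 3).

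From 30 to 72 h the estimates of 23 of 25 genes lay below the controls, with a median of -0.17 log2, but 0 of 25 passed limma's test and 4 had an unadjusted p under 0.05. Of all genes 0.112% passed there in either direction. The core mean was -0.26 to -0.02 over the 7 arrays, against -0.17 to 0.16 in the 4 controls, and the cap mean -0.28 to -0.12, against -0.13 to 0.15 in the controls. For the cap 6 of 7 arrays lay below all controls. Psmc5 had 601.94 to 796.36 at 30 to 72 h, against 806.4, 992.3, 1016 and 899.1 in the controls, and Psmc4 had 681.17 to 967.1, against 1023, 1030, 1142 and 1176. Both genes were under every control on all 7 arrays, with changes of -0.39 ± 0.15 and -0.38 ± 0.15 that did not pass (adjusted p = 0.692 for each). Psmb4 of the core was also under every control on all 7 arrays, with a change of -0.26. The share of all genes under every control on these arrays was not counted.

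Set against each other, the late and the middle window differed for most of the genes. In a direct contrast of 30 to 72 h with 4 to 8 h, 22 of 25 were lower late, against 21.7% of all genes. All 11 core genes, 9 of 10 cap genes, Psmd10 and Psme2 were among them. Psma7 fell by 1.13 ± 0.12 on the log2 scale (adjusted p = 8.02e-09), Psme2 by 1.02, Psmc4 by 0.96 ± 0.11 (adjusted p = 2.31e-08) and Psma6 by 0.93. The contrast does not use the control means. Over all times together, the moderated F test passed 19 of 25 genes, against 34.3% of all genes.

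Markers of some other liver cells moved in the same window. At 4 to 8 h the summed neutrophil signal, from 3 of 8 markers on the array with Mmp8 below the filter, was 561.53 to 4670.2 with a median of 1201, against 121.14 to 619.85 in the controls, and both tested markers rose. At 1 to 2 h, where 1 proteasome gene passed, that sum was 1157.9 to 5911.2. Summed Kupffer cell and macrophage signal, from 4 of 9 markers of which 2 rose and 1 fell, was 6571 to 18976, against 4385.6 to 5702.3 in the controls, and the endothelial sum, from 4 of 7 markers of which 2 rose and 1 fell, was 1843.6 to 3368.3, against 1108.8 to 1333.1. Hepatocyte sums were 80122 to 140940, against 64836 to 232380 in the controls. The sums of T and NK cell, B cell, erythroid, stellate cell and cholangiocyte markers overlapped their control ranges as well. The part of these cells in the proteasome values was not tested.

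Partners of the proteasome were read from a list of enzymes and factors around it, leaving the immunoproteasome aside. At 4 to 8 h 6 of 14 rose, against 16.8% of all genes (11.5% with median centring), and their median was 0.23 log2, against 0.11 for all genes. They were the ubiquitin-conjugating enzymes Ube2g2 (2.22 ± 0.30), Ube2d2 (0.73 ± 0.18) and Ube2b (0.68 ± 0.14), the unfolding ATPase Vcp (0.62 ± 0.13), the small Maf factor Mafk (0.54 ± 0.14) and the cap-bound thioredoxin Txnl1 (0.36 ± 0.12). The remaining 8 did not pass.

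In the long course fewer of the 38 genes passed, and 2 of them moved down throughout. At 6 to 18 h 2 genes rose and 2 fell, against 4.98% and 5.16% of all 8069 genes tested. The estimates were above 0 for 32 of 38, with a median of 0.18 log2, against -0.03 for all genes. The core mean over the 16 arrays was -0.04 to 0.52 with a median of 0.24, against -0.25 to 0.26 in the 4 controls, and 7 of 16 arrays lay above all controls. The cap mean was -0.05 to 0.46, against -0.16 to 0.17, with 11 of 16 above all controls. Of the 4 calls, 1 was left without control replicate 4 and 2 without control replicate 1 or 3.

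Psma6, the leading gene of the short course, also rose at 6 to 18 h of the long course. Its signals were 1652.9 to 2677.4 with a median of 2068 over 16 arrays, against 1267, 1656, 1630 and 1204 in the controls, and 15 of 16 arrays were above all controls. The change was 0.52 ± 0.14 (adjusted p = 0.0154). Psmc5, the cap ATPase, had 251.26 to 565.72 with a median of 392.6, against 269.8, 378, 278.8 and 155.3 in the controls. Its change was 0.53 ± 0.16 (adjusted p = 0.0253), but the call was lost without control replicate 1, 3 or 4, and without replicate 4 the change was 0.32. With the arrays of low spike-in signal alone the change was 0.41 and the call was lost. Psma2 and Psma1 of the alpha ring had 0.47 ± 0.16 and 0.47 ± 0.18 and did not pass, and Psma7, a leading gene of the short course, had 0.04 ± 0.12.

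**Figure D4:**
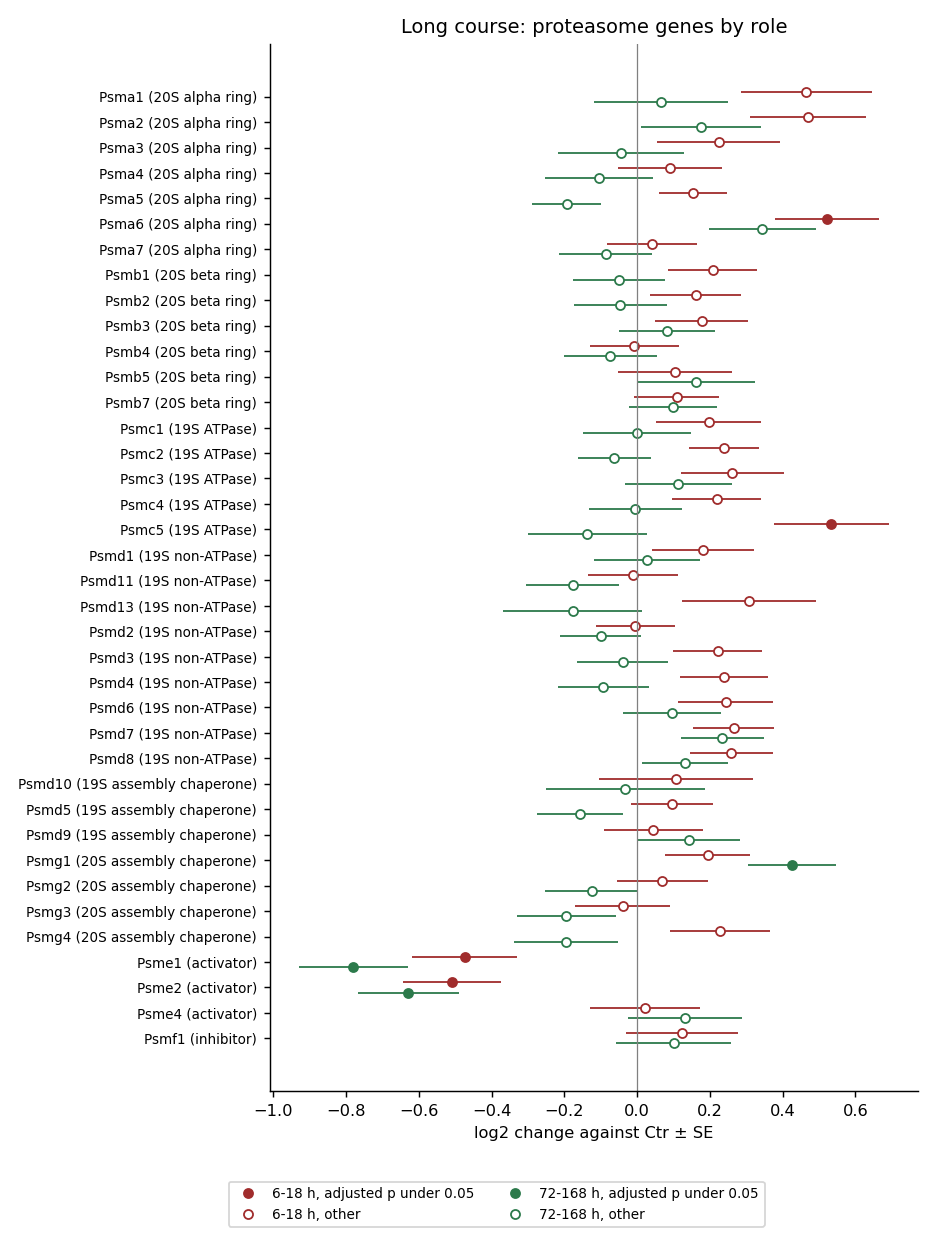
Log2 change against the controls (x axis, with SE bars) of the 38 proteasome genes of the long course, grouped by role down the page, at 6 to 18 h and at 72 to 168 h, with filled points for an adjusted p under 0.05. Psma6 and Psmc5 are filled above 0 at 6 to 18 h, Psmg1 at 72 to 168 h, and Psme1 and Psme2 below 0 at both.

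Psme1 and Psme2, the PA28 pair, fell in all 3 windows of the long course. Psme1 had 613.39 to 1166.9 with a median of 1014 at 6 to 18 h, 615.39 to 1252 at 24 to 48 h and 586.89 to 1139.2 at 72 to 168 h, against 1203, 1496, 1216 and 1510 in the controls. It was under all 4 controls on 16 of 16, 11 of 12 and 12 of 12 arrays. The changes were -0.47 ± 0.14 (adjusted p = 0.0302), -0.55 ± 0.15 (adjusted p = 0.0193) and -0.78 ± 0.15 (adjusted p = 0.000298). Psme2 had 253.21 to 554.85 with a median of 383.0 at 6 to 18 h and 272.16 to 431.94 at 72 to 168 h, against 550.5, 635.8, 649.3 and 439.3 in the controls. It was under all controls on 14 of 16 and 12 of 12 of these arrays, with changes of -0.51 ± 0.13 (adjusted p = 0.0120) and -0.63 ± 0.14 (adjusted p = 0.00159). At 24 to 48 h these were the 2 genes of 38 that passed, against 2.81% of all genes lower. The count there was 0 without control replicate 2 and 1 without control replicate 1, 3 or 4, 24 h replicate 2 or 36 h replicate 2. The first 2 calls of Psme1 were lost without control replicate 2 or 4, and the first also with each array centred on its median, at -0.44 (adjusted p = 0.0532). Array weights lost both as well, at -0.43 and -0.49 (adjusted p = 0.078 and 0.082). With the arrays of low spike-in signal alone these 2 changes were -0.46 and -0.57, and both calls were lost.

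The immunoproteasome subunits, left out of the members, gave values beside that pair. Psmb8, Psmb9 and Psmb10, the interferon-induced cutting subunits that work with PA28, fell in each of the 3 windows. At 6 to 18 h the changes were -1.09 ± 0.18, -1.01 ± 0.21 and -0.96 ± 0.17, and at 72 to 168 h they were -0.76 ± 0.19, -1.003 ± 0.21 and -1.04 ± 0.17. Psmb10 had 59.354 to 146.65 at 6 to 18 h, against 227.5, 249.8, 200.1 and 228.9 in the controls, with no overlap. The constitutive counterparts Psmb5 and Psmb7 had 0.10 ± 0.16 and 0.11 ± 0.12 at 6 to 18 h and did not pass. In the short course Psmb8 and Psmb9 had 0.35 ± 0.20 and 0.53 ± 0.31 at 4 to 8 h and did not pass either.

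**Figure D5:**
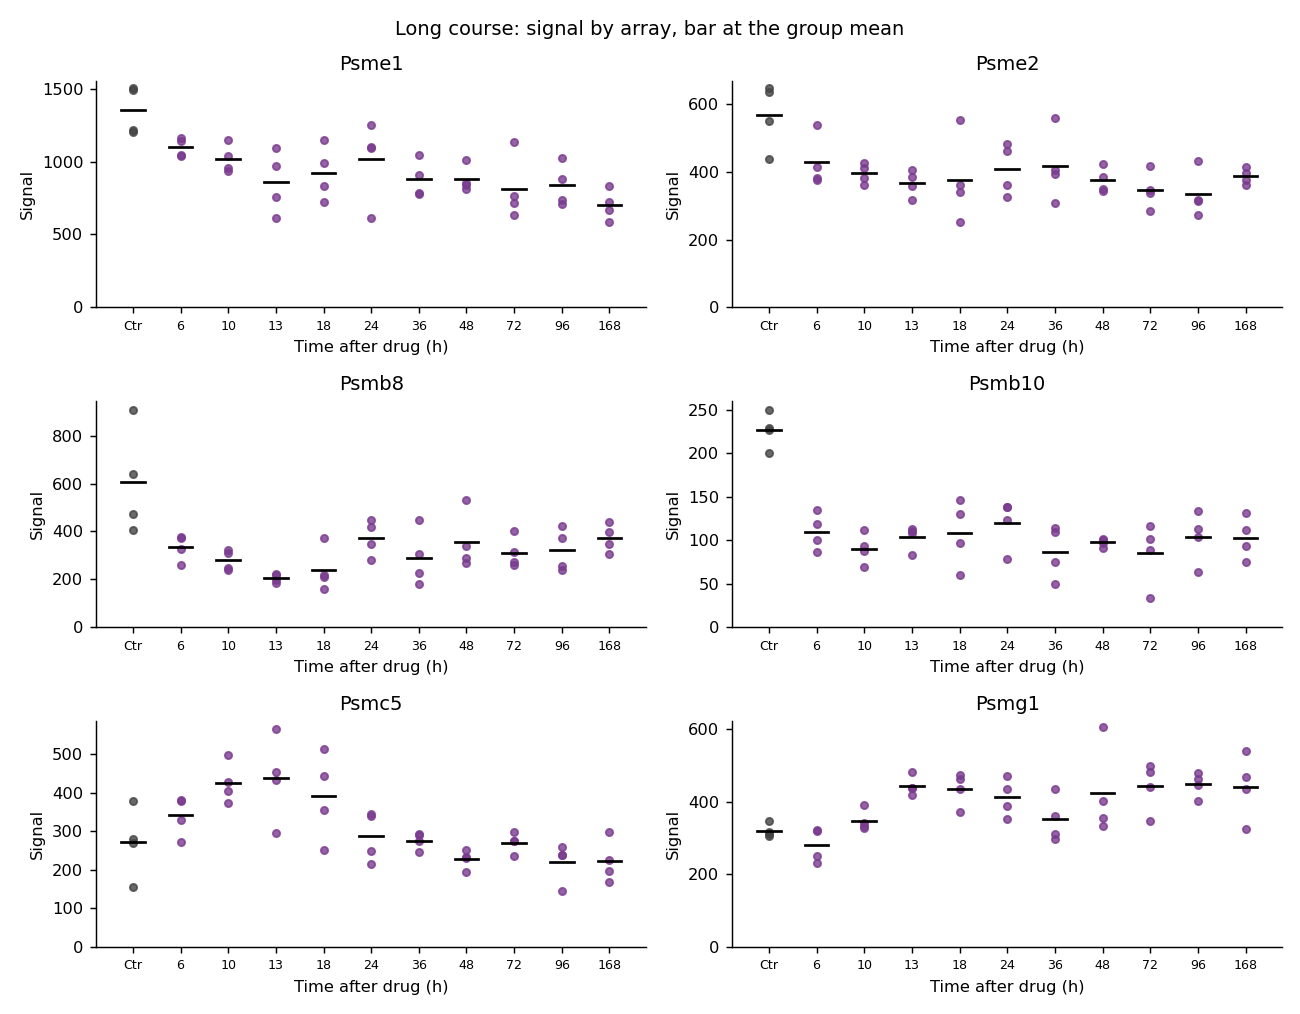
Deposited signal (y axis, from 0) of Psme1, Psme2, Psmb8, Psmb10, Psmc5 and Psmg1 on each array of the long course against time in hours, with a bar at each group mean and the controls in grey. Psme1 at 6 to 18 h and Psmb10 in every window lie below all 4 controls on each array, and Psmg1 at 72 to 168 h is above all controls on 11 of 12 arrays.

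Immune cell markers of the long course are given here as sums, with no test of the sums. The summed Kupffer cell and macrophage signal, from 5 of 9 markers, was 800.65 to 1786.9 at 6 to 18 h and 1013.7 to 2082.5 at 72 to 168 h, against 1917 to 2218.9 in the controls, with 2 of 5 markers past the threshold in each window. The B cell sum, from Cd74 and Cd79b with Cd79b below the filter, was 325.62 to 803.74 and 183.33 to 452.24, against 688.68 to 1007.7 in the controls. The neutrophil sum, from 3 of 8 markers with S100a8 below the filter, was 69.111 to 240.54 and 50.666 to 715.67, against 69.88 to 287.93 in the controls. The T and NK cell sum, from 10 of 10 markers of which 8 were below the filter, was 237.05 to 387.86 and 228.99 to 477.46, against 320.87 to 453.55. No tested neutrophil, T or NK cell marker passed in these windows. The log2 excess of the 3' over the 5' Gapdh probe set, a measure of RNA quality, was 0.30 to 0.44 at 72 to 168 h, against -0.13 to 0.35 in the controls. Their part in the fall of Psme1 and Psme2 was not tested.

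At 72 to 168 h 1 gene rose and 2 fell, against 5.09% and 6.46% of all genes. The gene that rose was Psmg1, a chaperone that pairs alpha subunits in core assembly. It had 324.09 to 539.14 with a median of 454.4 over 12 arrays, against 305.4, 345.6, 315 and 311.8 in the controls, and 11 of 12 were above all controls. The change was 0.43 ± 0.12 (adjusted p = 0.0157), lost without control replicate 1 (adjusted p = 0.0566). With the arrays of low spike-in signal alone this change was 0.40 and the call was lost. The core and cap medians were -0.04 and -0.02 log2, and 35 of 38 genes did not pass. In the direct contrast of 72 to 168 h with 6 to 18 h, 12 genes were lower late and Psmg1 was higher, against 12.4% and 9.7% of all genes. The call of Psmg1 there was lost in 9 of 44 fits that each left out 1 array. Psmc5 fell by 0.67 ± 0.11 on the log2 scale (adjusted p = 1.26e-05), Psmd13 by 0.49 ± 0.13, Psmg4, another core assembly chaperone, by 0.42 ± 0.09 and Psma5 by 0.35 ± 0.06. With the arrays of low spike-in signal alone the change of Psmg4 was -0.28 and that of Psmg1 0.21, and both calls were lost. Single times gave 13 calls over 38 genes and 10 times, against 5.84% of all gene and time pairs, and without control replicate 1 or 3 at most 8 were left. The F test over all times passed 6 of 38 genes, namely Psma5, Psmc2, Psmc5, Psmg1, Psmg4 and Psme1, against 25.3% of all genes. It passed 11 without control replicate 2, 12 without 18 h replicate 4 and 10 without 168 h replicate 1, and with array weights it passed 19. The share of all genes was not counted for these other fits.

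In the long course 3 of 37 partners rose and 3 fell at 6 to 18 h, against 4.98% and 5.16% of all genes. Ube2g2 (0.96 ± 0.18), Ube2n (0.50 ± 0.15) and Ube2b (0.38 ± 0.10), all ubiquitin-conjugating enzymes, rose. Nfe2l2, the factor that turns on proteasome genes under oxidative stress, fell by 0.69 on the log2 scale, and the conjugating enzymes Ube2h and Ube2r2 by 0.58 and 0.51. At 72 to 168 h 4 of 37 partners fell, against 6.46% of all genes: Nfe2l2 by 0.75, Nfe2l1, the factor that restores proteasome genes when the proteasome is blocked, by 0.45, Vcp by 0.39 and its cofactor Nsfl1c by 0.45.

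The 25 genes of the short course were all read in the long course too, on another array design with its own controls and scale, so the values stand side by side and no difference was tested. At 4 to 8 h of the short course 24 of the 25 had positive values, at 6 to 18 h of the long course 20, and 19 in both. At 6 h, the earliest time of the long course, the median over the 25 was 0.47 log2 in the short course and 0.05 in the long course, with 24 and 14 values above 0. The last windows held 23 of 25 values below 0 at 30 to 72 h of the short course and 17 at 72 to 168 h of the long course.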

How the data were processed

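Signals of liver RNA were analysed for 47 and 44 Affymetrix arrays of 2 designs. The authors deposited intensity values on a linear scale, 1 for each probe set of an array, per the file headers. How probes were combined and scaled is not stated in the sources used here, and the number of arrays limits the precision. Members, gene lists and windows were chosen with earlier results of these data known.

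Spike-in and other control probe sets (59 and 57) were removed, 6 h replicate 3 of the short course was rescaled by its trimmed mean, and log2(signal + 32) was taken, which understates changes of dim genes. Probe sets under the 30th percentile of mean signal were dropped. Group means were fitted over all arrays of a course with limma 3.58.1 in R 4.3.3 (eBayes with a variance trend). A window averages its times with equal weight. The Benjamini-Hochberg adjustment ran over all probe sets tested in each contrast. A gene stands for its brightest probe set, and counts are of genes. The code was tested on simulated data. Symbols came from GEO's platform annotation, and 7006 and 12783 probe sets had 1 symbol, 308 and 312 several, 1426 and 2771 none. Psmb6 was planned but shares its probe sets with another symbol. Genes described singly were, by rule, those past the F test with the smallest p in each role, the active subunits Psmb5 and Psmb7, and in each window the 3 largest changes past the threshold in each direction. Others were named with their values seen, to complete a role or where probe sets disagreed. Alternatives covered the scaling, the constant, the filter, weights, a replicate block and the arrays used.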

Additional observations from a re-analysis of the deposited data

Results flagged for a closer look

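Each described gene was looked at in each group of 4 arrays, which gave 14 sets of values in the short course, all from the controls, and 88 in the long course. Single arrays stood far from the others in 6 sets, all in the long course, where chance marks about 1 in 20. Psmc5 had 145.7 on 96 h replicate 2, and the other 3 arrays had 238.6 to 259.6. Psmg4 had 268.9 on 10 h replicate 1 (others 365 to 378.1), 286.2 on 48 h replicate 3 (others 209.4 to 220) and 167.1 on 96 h replicate 2 (others 253.2 to 274.3). Psmb5 had 1741 on 96 h replicate 3 (others 875.7 to 960.4), which is the long-course array of low correlation. Psmb7 had 660.8 on 13 h replicate 1 (others 597.7 to 605.2).

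Effects against the same controls differed between windows by a direct contrast for 22 of 25 genes in the short course (30 to 72 h minus 4 to 8 h) and for 13 of 38 in the long course (72 to 168 h minus 6 to 18 h). Of all genes, 37% and 22.1% differed in these contrasts, in either direction.

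Probe sets whose annotation joins a proteasome symbol with another were not used in the counts. Which of the joined genes such a signal comes from was not tested, so it cannot be read as a proteasome value. In the short course 2 of them passed at 4 to 8 h, D90258_s_at with 0.51 ± 0.11 log2 (adjusted p = 0.000653) and L37333_s_at with -1.71 ± 0.49 (adjusted p = 0.00975). In the long course 2 passed at 6 to 18 h, one with 0.57 ± 0.10 (adjusted p = 9.52e-05) and the other with 0.50 ± 0.14 (adjusted p = 0.0164).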

How the results depend on the processing

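Each result was refitted with other added constants, scalings, filters, variance models, array weights and array sets, and none changed sign past the threshold. In the short course the count of members changed at 0.25 to 0.75 h, 1 as reported, was 0 with quantile normalization, median centring, no filter, the replicate block or without the arrays of low correlation, and 2 with array weights. At 1 to 2 h it was 2 with median centring, where the added gene was Psmb3 at -0.41, and 0 with the replicate block or without the low-correlation arrays. At 4 to 8 h it was 8 with the replicate block and 5 without the low-correlation arrays, where 10.7% and 4.5% of all genes rose. At 12 to 18 h it was 1 with no filter, the replicate block or the mean of probe sets, and 0 without the low-correlation arrays. Calls at single times, 38 in all, were 8 without the low-correlation arrays. With 6 h replicate 3 on its deposited scale, which widens the spread that all groups share, the counts were 0 by the F test, 0 at single times, 0 at 0.25 to 0.75, 1 to 2 and 12 to 18 h, 1 at 4 to 8 h and 9 between the late and middle windows. Of all genes, 4.08% then rose at 4 to 8 h and 7.46% were lower in the late window than in the middle one. In the long course the F test passed 19 with array weights, and the share of all genes it then passed was not counted. Within the arrays of low spike-in signal alone, fewer arrays, calls were 6 at single times (13 as reported), 2 at 6 to 18 h, 1 at 24 to 48 h and 8 between the late and early windows. In that last contrast 6.75% of all genes were lower late, as were these 8. At 24 to 48 h the count was also 1 with median centring or array weights. Leaving out 1 array at a time gave 16 to 20 genes by the F test, 27 to 57 calls at single times, 0 to 5 at 0.25 to 0.75 h, 0 to 1 at 1 to 2 h, 9 to 13 at 4 to 8 h, 0 to 3 at 12 to 18 h, 0 at 30 to 72 h and 20 to 22 between windows for short-course genes. For long-course genes it gave 6 to 12 by the F test, 7 to 17 at single times, 1 to 6 at 6 to 18 h, 0 to 2 at 24 to 48 h, 2 to 3 at 72 to 168 h and 10 to 14 between windows. No label says that arrays of one number share more than that number, so the replicate block is no pairing by design. Their deviations from group means correlated at -0.01 on average among short-course arrays, with 26.0% of pairs over 0.1. Among long-course arrays the mean was 0.05, with 34.1% of pairs over 0.1. Long-course replicate 4 arrays, all at a spike-in signal of log2 9 or more, gave 0.11 and 43.6%. Long-course pairs of unlike number had a mean of -0.02. Groups of 2 to 4 arrays and 4 controls limit what single times can show, and signal near the filter limits dim genes such as Psmd10.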
